A study of Mus musculus with 36 samples.

Results

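The complement and coagulation genes described here are 40 liver-made plasma proteins and their regulators, chosen by name from a list and kept where the reads summed over the 36 libraries came to at least 100. All 40 were found in the count table of 54532 genes, and all 40 were among the 17994 genes that passed the same minimum and were tested. The data were bulk liver transcriptomes of 36 male mice aged 2 to 3 months on the C57Bl/6NCrl background, fed normal chow ad libitum under a 12 h/12 h light/dark cycle. Controls were THRB+/- mice, named THRBWT in the study although they carry 1 targeted allele, and knockouts were THRB-/- mice, named THRBKO. The targeted Thrb allele, carried by every mouse, impairs DNA binding of both isoforms of thyroid hormone receptor beta in all tissues, so effects that start outside the liver cannot be told apart from effects within it. Sampling ran every 4 h from ZT2 to ZT22 (zeitgeber time, h after lights on) with 3 mice per genotype at each time, 18 mice per genotype in all, and the mice of a group carry the letters a, b and c.

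Most clotting and complement proteins of plasma are secreted by hepatocytes. In coagulation a chain of serine protease zymogens, several of which need vitamin K for their membrane-binding domain, ends in thrombin, which turns soluble fibrinogen into fibrin. Plasmin later dissolves that fibrin, and serpins and other inhibitors hold each step in check. Complement is started by antibody, by mannose-binding lectins or on bare surfaces. The 3 routes meet at C3, and the terminal components then assemble into a pore. Many of these genes belong to the acute phase response, in which hepatocytes change the output of plasma proteins after an inflammatory signal, and thyroid hormone status is known to alter clotting factor levels in plasma.

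The libraries held from 29063273 to 39913574 counts in THRBWT and from 31008555 to 42530551 in THRBKO, and the 40 genes took 3.23% to 4.35% of a THRBWT library and 3.02% to 4.44% of a THRBKO library. Levels are given in CPM (counts scaled to a common library size, with TMM factors). Hepatocyte markers were high in every library, with Alb at 41436 CPM or more, while the neutrophil marker list summed to 0.188 to 1.56 CPM in THRBWT and 0.252 to 1.78 CPM in THRBKO. Thrb was counted in every library, from 24.3 to 38.5 CPM in THRBWT and from 26.2 to 37.7 CPM in THRBKO, with a log2 fold change of 0.13 (edgeR adjusted p = 0.309). Counts over the whole gene gave no check of the genotype labels, and reads over the altered part were not analysed here. In bulk tissue, fewer cells of a type and less RNA per cell cannot be told apart. A pair of mice stood apart on terminal complement genes and on some marker genes given beside that result, mouse b of THRBWT at ZT6 and mouse b of THRBKO at ZT22, and mouse a of THRBWT at ZT2 had the highest level of the acute phase gene Saa1 (234 CPM), so counts that rest on them are also given without them.

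The library kit did not mark strand, and some genes of the list share exons with other genes of GENCODE M21. The shared part of the exonic bases was 79.5% for Cfb and 46.9% for C2, mainly with the gene model Gm20547, which was listed at 0 counts in the 36 libraries. It was 54.9% for Masp2 (with Tardbp), 43.2% for Klkb1 (with Gm45753, 5 counts in all), 34.4% for Serpinc1 (with Zbtb37) and 11.3% for Plg (with Slc22a3). A further 3 genes shared 5.49% or less, and the other 31 none. How the counting treated such reads is not stated, so the levels of these genes may be too low, and the same holds for reads that match both of a pair of close copies (C4a and C4b, C1ra and C1rb, Kng1 and Kng2).

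Per kb of gene length, the 40 genes spanned a wide range. Vtn (vitronectin, which stabilizes an inhibitor of plasminogen activators) stood at 1255 ± 97.7 CPM per kb (SD, n = 36), Fgg at 1204 ± 286, Fga at 1194 ± 315, C3 at 1098 ± 158 and Fgb at 945 ± 190. The neighbours in this order lay within one another's SD. These 5 genes supplied 43.6% to 52.6% of the reads of the list in a library. Of the 40 genes, 4 lay at or above 1000 CPM per kb, 21 between 100 and 1000 (Fgb among them) and 15 under 100. F11 (31.2 ± 7.39), Masp1 (16.5 ± 1.63), Pros1 (13.5 ± 1.91), C2 (10.1 ± 1.65) and Cfb (2.80 ± 0.642) were the lowest, and of these C2 and Cfb are the genes with large shared exons. Each gene had at least 163 counts in every library, so counting error was small beside the differences between mice.

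The first question was whether the level of these genes differed between genotypes. With sampling time in the model, 2 of the 40 genes passed, F11 and C2, and both were lower in THRBKO livers. Over all genes 171 passed (0.950%), of which 80 were lower in THRBKO (0.445%). Tests were quasi-likelihood fits in edgeR, with p adjusted by Benjamini-Hochberg over the 17994 genes. The 40 log2 fold changes ran from -0.32 to 0.13. Their median was -0.02 against -0.0011 for all genes tested, and the median size of the change without its sign was 0.05 against 0.07. Most of these genes thus had small differences with tight intervals, as the plot of fold changes by role shows.

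**Figure D1:**
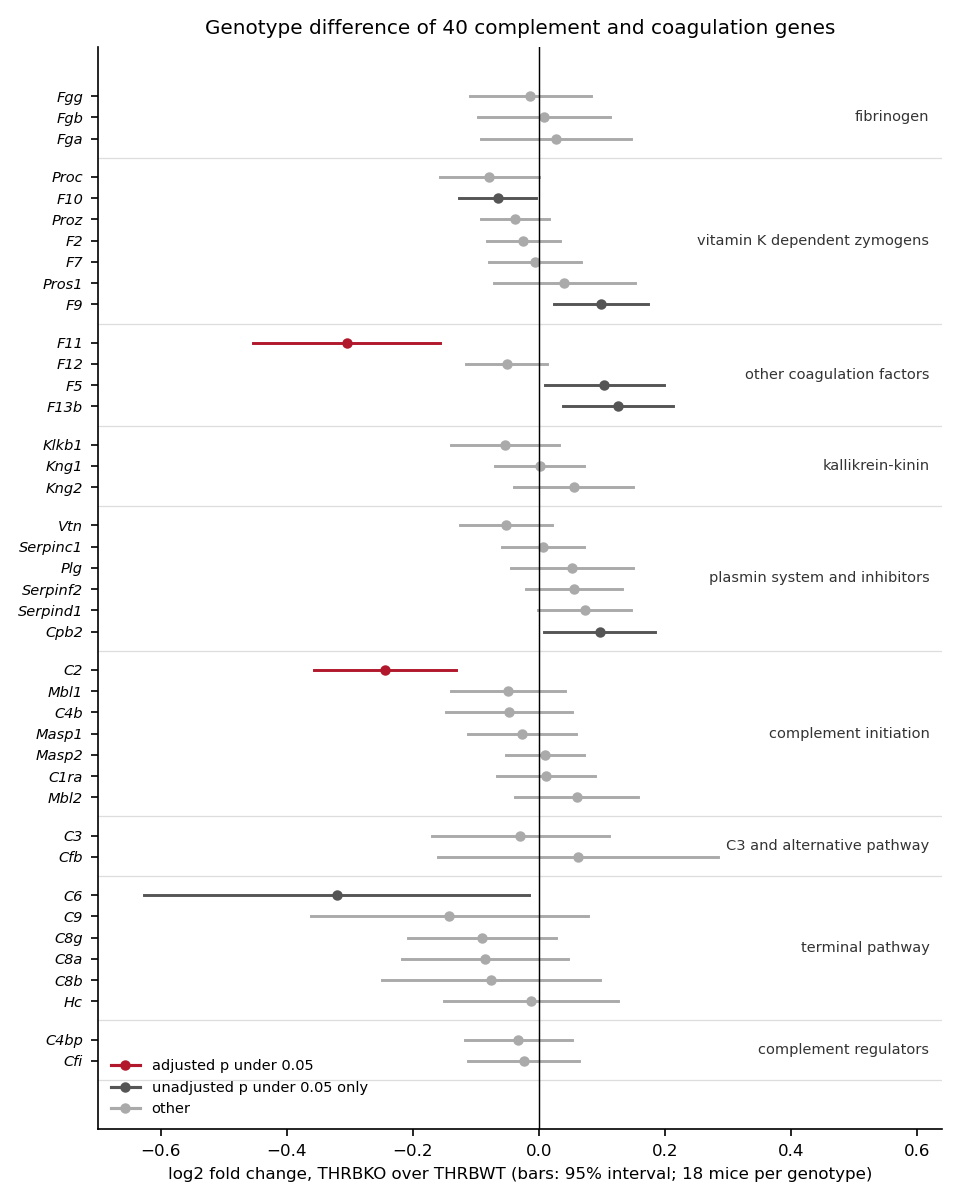
Log2 fold change of THRBKO over THRBWT for each of the 40 genes, grouped by role, with 95% intervals from edgeR (18 mice per genotype, sampling time in the model). F11 (-0.30) and C2 (-0.24) are the genes past an adjusted p of 0.05, and the intervals of the 6 terminal pathway genes are among the widest.

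F11 encodes factor XI, the zymogen that activated factor XII or thrombin cleaves and that in turn activates factor IX. It lies on chromosome 8 of GRCm38 from 45241174 to 45262031 on the minus strand. In THRBWT livers its lowest, median and highest levels were 50.5, 74.2 and 103 CPM, and in THRBKO livers 44.3, 59.1 and 96.1 CPM. The ranges overlapped widely, with 4 THRBKO mice below the lowest THRBWT mouse and 3 THRBWT mice above the highest THRBKO mouse. The means were 76.9 ± 15.3 CPM (SD, n = 18) and 62.8 ± 15.1 CPM (SD, n = 18), and the log2 fold change was -0.30 (SE 0.073, edgeR adjusted p = 0.0283). The THRBKO mean was lower at 5 of 6 sampling times.

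The gap in F11 was widest at ZT22, where the THRBWT mice had 80.3, 63.3 and 75.3 CPM and the THRBKO mice 46.6, 45.0 and 58.3 CPM. At ZT2 the values were 87.5, 101 and 83.8 CPM against 57.7, 71.2 and 77.1 CPM. At ZT22, at ZT2 and at ZT14 each THRBKO mouse lay below each THRBWT mouse. C2 was also separated in this way at 3 times, F2 at 2, and Vtn, Proc, Cfi, C6, C4bp and Klkb1 at 1 each. In the other direction F9 was separated at 3 times, and Serpinf2 and F13b at 1 each. How often this holds over all genes was not counted, so no result is drawn from these separations. At ZT6 the order of the means turned, with 86.7, 56.2 and 99.4 CPM in THRBWT and 85.7, 73.0 and 96.1 CPM in THRBKO, and the low value of 56.2 belongs to the THRBWT mouse b that stands apart on terminal complement genes. Without that mouse and mouse b of THRBKO at ZT22, the log2 fold change of F11 was -0.33 (edgeR adjusted p = 0.00297). The call was lost without the mice of letter a (adjusted p = 0.583) or of letter c (0.104) and with sampling times pooled (0.371), all in edgeR.

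C2 encodes the serine protease zymogen of the classical and lectin pathways, whose fragment joins C4b to cleave C3. It lies on chromosome 17 from 34862604 to 34898265 on the minus strand, 85 bases from Cfb. The lowest, median and highest levels were 33.2, 41.4 and 52.2 CPM in THRBWT and 26.9, 35.9 and 43.5 CPM in THRBKO. The upper part of the THRBWT range was not reached in THRBKO, since 8 THRBWT mice lay above the highest THRBKO mouse and 5 THRBKO mice lay below the lowest THRBWT mouse. The means were 42.2 ± 5.68 and 35.7 ± 5.48 CPM (SD, n = 18 each), and the log2 fold change was -0.24 (SE 0.055, edgeR adjusted p = 0.0183), with the THRBKO mean lower at 6 of 6 sampling times. The call was lost without the mice of letter b (adjusted p = 0.0740) or of letter c (0.244) and with sampling times pooled (0.177), all in edgeR, while the log2 fold change stayed between -0.25 and -0.24. Reads of C2 outside the shared exons were not counted apart here, so the part of the shared exons in the difference was not tested.

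**Figure D2:**
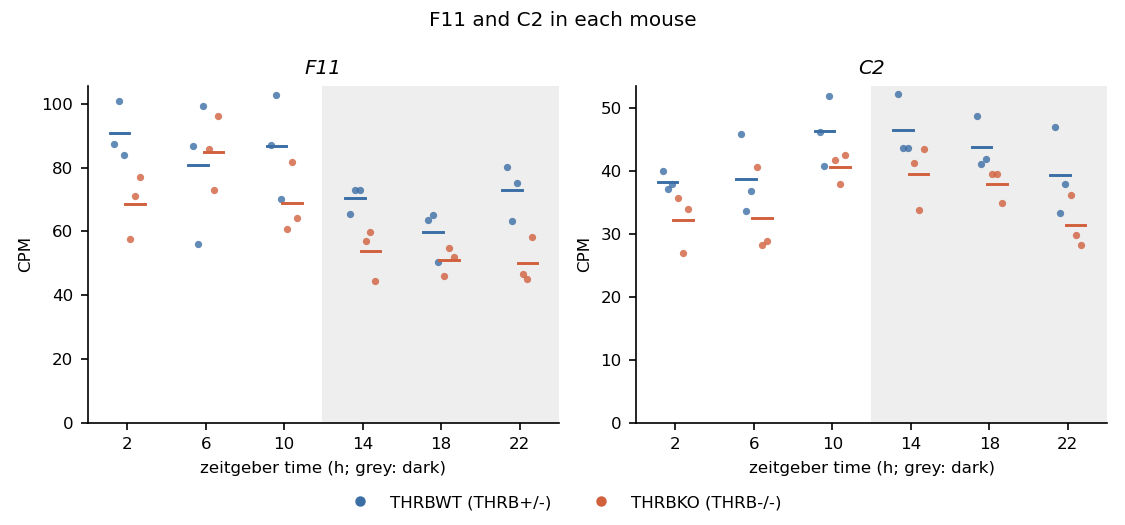
CPM of F11 and C2 in each mouse against zeitgeber time, 3 mice per genotype and time, with a line at the mean of each group. THRBKO means lie below THRBWT means at 5 of 6 times for F11 and at 6 of 6 for C2, and F11 crosses at ZT6.

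An unadjusted p under 0.05 was reached by 8 genes of the list, 4 lower and 4 higher in THRBKO. Over all genes tested this share was 12.1%, with 5.96% lower and 6.09% higher. Beside F11 and C2, the lower ones were C6, a component of the membrane attack complex (log2 fold change -0.32, SE 0.150, edgeR adjusted p = 0.383), and F10, the zymogen that cleaves prothrombin (-0.07, SE 0.030, adjusted p = 0.374). The higher ones in edgeR were F13b, the carrier subunit of the fibrin cross-linking factor XIII (0.13, SE 0.043, adjusted p = 0.181), F9, the vitamin K dependent zymogen below F11 (0.10, SE 0.037, adjusted p = 0.238), F5, the cofactor of factor Xa (0.10, SE 0.047, adjusted p = 0.357), and Cpb2, a carboxypeptidase that slows fibrin breakdown (0.10, SE 0.043, adjusted p = 0.357). None of these 6 passed after adjustment in this fit. F13b passed when the same-letter mice of each sampling time were taken as a block (edgeR adjusted p = 0.0198). F13b ran from 134 over a median of 163 to 213 CPM in THRBWT and from 151 over 175 to 225 CPM in THRBKO, with the THRBKO mean higher at each of the 6 times. F9 ran from 129 over 150 to 178 CPM and from 149 over 161 to 192 CPM, so both ranges covered much of each other.

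By role, the 3 fibrinogen genes had log2 fold changes from -0.01 to 0.03, and none passed. Of the 7 vitamin K dependent zymogens and cofactors (F2, F7, F9, F10, Proc, Pros1, Proz) none passed, with 5 below 0 and 2 above. Of the 3 kallikrein-kinin genes (Klkb1, Kng1, Kng2) and the 6 genes of the plasmin system and its inhibitors (Plg, Serpinf2, Cpb2, Serpinc1, Serpind1, Vtn) none passed either, and the values lay between -0.05 and 0.10. In complement initiation (C1ra, Masp1, Masp2, Mbl1, Mbl2, C2, C4b) C2 was the gene called. C3 and Cfb had -0.03 and 0.06, and the regulators Cfi and C4bp -0.02 and -0.03. The 6 terminal genes were each below 0, from -0.32 for C6 to -0.01 for Hc, which encodes C5, and none passed.

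At single sampling times, none of the 240 tests of the 40 genes passed in edgeR after adjustment within each time, against 0.0278% of all genes at ZT2, 0.0111% at ZT6, 0.0167% at ZT10 and at ZT14, and 0.0222% at ZT18 and at ZT22. An unadjusted p under 0.05 was found in 7 of the 240 tests (2.92%), 3 of them for F11 (ZT2, ZT14 and ZT22), and DESeq2 called 0 with 9 under 0.05. This share lay below that of all genes tested, which was 5.43% at ZT2, 4.37% at ZT6, 4.12% at ZT10, 5.34% at ZT14, 5.36% at ZT18 and 4.73% at ZT22. At ZT22 the log2 fold change of F11 was -0.55 (SE 0.17, edgeR adjusted p = 0.702). The interaction of genotype and sampling time, which asks whether the difference itself varies over the day, was called for 0 of the 40 genes by edgeR and by DESeq2, and 0 had an unadjusted p under 0.05 in either. Over all genes edgeR called 0% for the interaction, with 2.69% at an unadjusted p under 0.05. With 3 mice per group the smallest p among the 40 was 0.106 for Cfi.

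The second question was how these genes run over the day. A curve with a period of 24 h was called for 10 of the 40 genes in THRBWT (33.0% of all genes tested) and for 13 in THRBKO (28.9% of all), so the share in the list was near that of all genes. In both genotypes 8 were called, against 21.5% of all genes tested, namely Fga, Serpinf2, Fgg, Klkb1, Fgb, F11, Mbl1 and F5. These peaked in the light phase, with fitted peaks from ZT1.76 to ZT11.2 in THRBWT and from ZT2.68 to ZT11.3 in THRBKO. The amplitude, the log2 distance from the mean level of the fitted curve to its peak, had a median of 0.10 over the 40 genes in THRBWT and 0.11 in THRBKO. Among the 8438 genes at or above the lowest mean level of the list it was 0.15 and 0.14.

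In mean amplitude over both genotypes the order was Fga, Serpinf2, Fgg, Klkb1 and Fgb. Fga, Fgb and Fgg encode the alpha, beta and gamma chains of fibrinogen and lie next to each other on chromosome 3 within a stretch where 11026 bases separate Fgg from Fga and 6513 separate Fga from Fgb. Fga had 4038, 5360 and 4215 CPM at ZT2 in THRBWT and 2627, 2701 and 2541 CPM at ZT14. In THRBKO it had 5183, 5127 and 4870 CPM at ZT2 and 2663, 2576 and 2568 CPM at ZT14. ZT2 and ZT14 held the highest and lowest means of Fga in both genotypes, and the mice at ZT14 lay within a narrow band. The fitted swing from trough to peak was 1.78-fold in THRBWT and 2.10-fold in THRBKO, with peaks at ZT1.96 (SE 0.57 h) and ZT2.94 (SE 0.36 h), and both rhythms passed (edgeR adjusted p = 9.37e-05 and 1.66e-06).

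Fgg followed the same course, with 3006, 3724 and 3347 CPM at ZT2 and 1854, 1759 and 2038 CPM at ZT14 in THRBWT. In THRBKO the values were 3727, 3208 and 3226 CPM and 1889, 1655 and 1758 CPM. Its swing was 1.74-fold and 1.95-fold, with peaks at ZT1.76 and ZT2.68 (edgeR adjusted p = 1.53e-05 and 9.50e-07). The swing of Fgb was smaller, 1.50-fold in THRBWT and 1.78-fold in THRBKO, with peaks at ZT2.56 and ZT3.77 (edgeR adjusted p = 0.000741 and 7.71e-06). Fgb fell from 3977, 4796 and 4221 CPM at ZT2 to 2817, 2867 and 3091 CPM at ZT14 in THRBWT, and in THRBKO from 5038, 4377 and 4278 CPM to 2985, 2688 and 2833 CPM.

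Since the fibrinogen genes moved together, the stretch before each start site is shown, from RefSeq windows of GRCm38.p6 that reach 250 bases before the start. Bases that GENCODE M21 already places in the transcript are left out, 77 of them for Fga. Capitals mark matches to letters that were searched on both strands: CTGGGAA (the acute phase core bound by STAT3), TTGCNNAA (the C/EBP core) and GTTAAT (part of the HNF1 motif). Positions count back from the start site, where -1 is the base before it. Fgg is taken from chr3:83007474-83007723 on the plus strand, Fga from chr3:83025903-83026075 on the plus strand and Fgb from chr3:83049864-83050113 on the minus strand.
Fgg: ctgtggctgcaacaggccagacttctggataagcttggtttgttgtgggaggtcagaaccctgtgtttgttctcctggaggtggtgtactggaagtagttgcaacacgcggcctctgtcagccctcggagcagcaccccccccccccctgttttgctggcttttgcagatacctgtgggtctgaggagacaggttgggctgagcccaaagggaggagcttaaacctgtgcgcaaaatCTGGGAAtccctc
Fga: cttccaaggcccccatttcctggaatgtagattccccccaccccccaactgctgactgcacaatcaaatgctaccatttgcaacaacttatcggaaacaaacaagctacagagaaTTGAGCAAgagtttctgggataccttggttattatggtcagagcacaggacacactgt
Fgb: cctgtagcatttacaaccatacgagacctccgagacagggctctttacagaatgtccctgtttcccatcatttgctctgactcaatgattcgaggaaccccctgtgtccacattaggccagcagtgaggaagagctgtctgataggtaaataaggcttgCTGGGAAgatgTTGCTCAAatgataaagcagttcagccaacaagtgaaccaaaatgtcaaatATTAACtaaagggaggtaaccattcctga
Fgg held the STAT3 letters at -13 to -7. Fga held C/EBP letters at -135 to -128, and Fgb held the STAT3 letters at -91 to -85, C/EBP letters at -80 to -73 and the HNF1 letters at -29 to -24. A match is a match of letters, and binding was not measured.

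**Figure D3:**
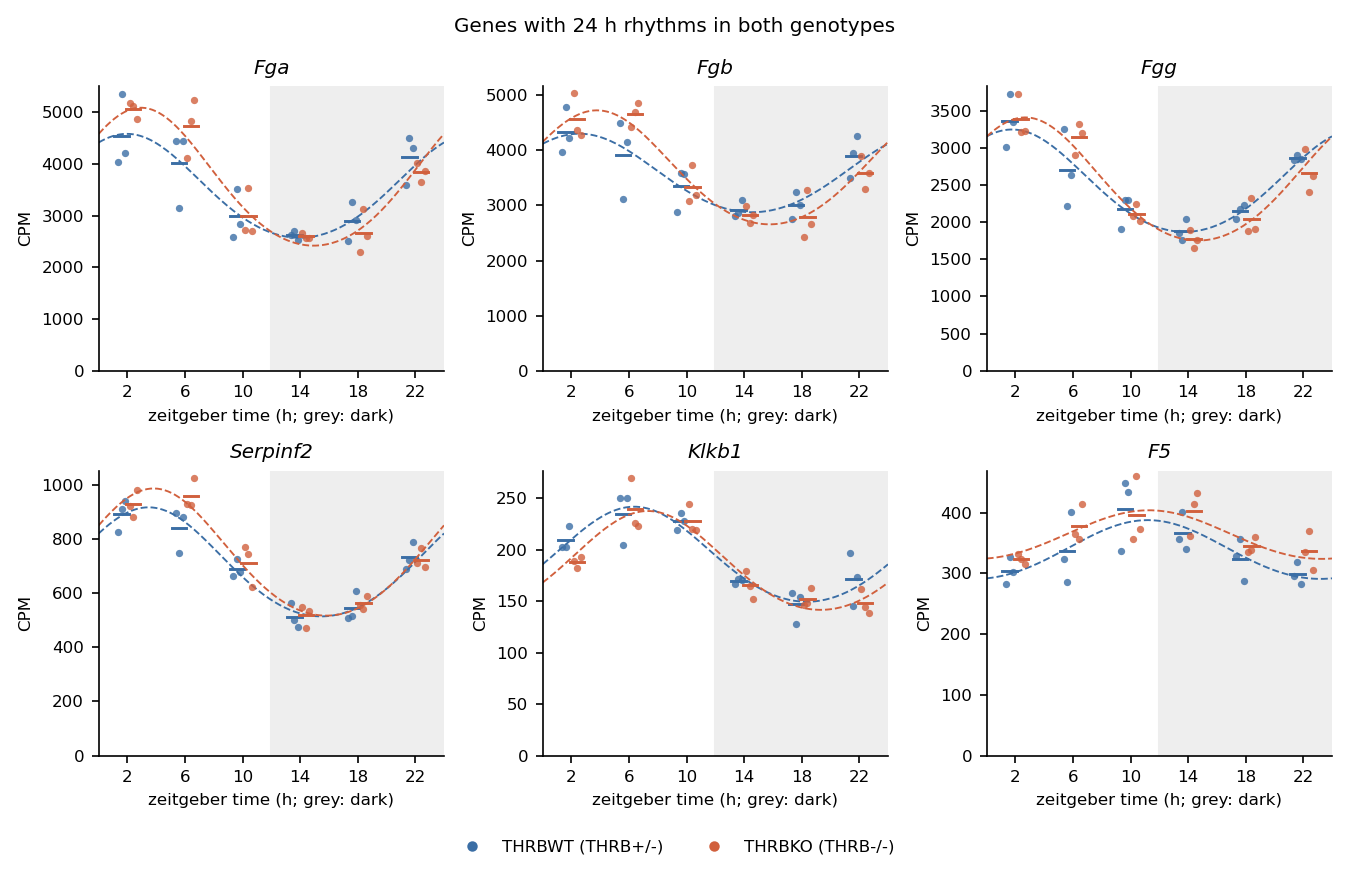
CPM of 6 genes called rhythmic in both genotypes against zeitgeber time, with 3 mice per genotype and time as points, group means as short lines and fitted 24 h curves as dashed lines. Fga, Fgb, Fgg and Serpinf2 are high at ZT2 and low at ZT14 to ZT18 in both genotypes, Klkb1 peaks near ZT6 and F5 near the end of the light phase.

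Serpinf2 encodes alpha2-antiplasmin, the main inhibitor of plasmin, and lies on chromosome 11, apart from the fibrinogen genes. It had 826, 911 and 940 CPM at ZT2 and 563, 501 and 474 CPM at ZT14 in THRBWT, and 920, 881 and 981 CPM and 548, 470 and 534 CPM in THRBKO. The mice at ZT2 and ZT14 were well separated in both genotypes. Its swing was 1.78-fold and 1.91-fold, with peaks at ZT3.47 (SE 0.34 h) and ZT3.82 (SE 0.27 h), and its adjusted p was the lowest of the list in each genotype (edgeR, 1.88e-06 and 3.67e-07).

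Klkb1, which encodes plasma prekallikrein, and F11 are related serine protease genes that lie 4657 bases apart on chromosome 8. Klkb1 had 250, 205 and 250 CPM at ZT6 and 158, 128 and 154 CPM at ZT18 in THRBWT. In THRBKO it had 270, 226 and 223 CPM at ZT6 and 146, 148 and 163 CPM at ZT18. Its swing was 1.62-fold and 1.68-fold, with peaks at ZT6.36 and ZT7.32 (edgeR adjusted p = 2.91e-05 and 7.46e-06). F11 swung 1.39-fold and 1.70-fold, with peaks at ZT5.42 (SE 1.34 h) and ZT6.30 (SE 0.67 h), and passed in THRBWT at an adjusted p of 0.0363 and in THRBKO at 0.000454 (edgeR). The THRBWT call of F11 was lost in edgeR without mouse a at ZT2 (adjusted p = 0.0516), with sampling time as a factor (0.115), and without the mice of letter a (0.208) or c (0.317). It was also lost when the 24 h curve was fitted to log2 CPM with limma (adjusted p = 0.0507). Without the pair of mice with low terminal genes the THRBWT rhythm of F11 passed in edgeR at 0.000887. The log2 ratio of F11 to Klkb1 per kb, a ratio picked after the values were seen, was -0.10 ± 0.23 (SD, n = 18) in THRBWT and -0.35 ± 0.21 (SD, n = 18) in THRBKO. Over both genotypes its mean moved from -0.11 at ZT2 to -0.35 at ZT10. The genotype difference was -0.30 for F11 and -0.05 for Klkb1, and the difference between these values was not tested.

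The starts of these 2 neighbours are shown because F11 was called for genotype and Klkb1 was not. Klkb1 is taken from chr8:45294860-45295085 and F11 from chr8:45262032-45262281, both on the minus strand, with capitals as above and with 24 bases left out for Klkb1.
Klkb1: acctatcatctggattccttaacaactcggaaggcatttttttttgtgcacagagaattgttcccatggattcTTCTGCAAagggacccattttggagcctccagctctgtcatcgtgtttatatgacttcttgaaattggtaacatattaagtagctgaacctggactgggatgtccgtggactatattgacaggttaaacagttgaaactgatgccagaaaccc
F11: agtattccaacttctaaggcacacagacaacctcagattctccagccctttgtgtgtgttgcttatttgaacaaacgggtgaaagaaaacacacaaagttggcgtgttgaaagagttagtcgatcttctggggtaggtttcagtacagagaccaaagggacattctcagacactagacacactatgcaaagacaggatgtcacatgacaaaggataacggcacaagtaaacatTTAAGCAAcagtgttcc
Each held 1 C/EBP match, at -177 to -170 in Klkb1 and at -17 to -10 in F11. Of the list, 32 genes had such a window (33 windows of 300 bases, as C8g has 2). C/EBP letters stood in 33.3% of these windows against 10.8% of all 32851 windows, HNF1 letters in 33.3% against 7.10%, STAT3 letters in 24.2% against 11.1%, and AAGGTCA, an element bound by ROR receptors, in 15.2% against 4.72%. Genes with the HNF1 letters included Fga, whose match lies in the bases left out. The D-box letters TTATGTAA and the E-box letters CACGTG stood in 0% of them, against 0.938% and 7.15% of all windows.

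The other genes called in both genotypes had smaller swings. Mbl1 encodes mannose-binding lectin A, which recognizes microbial sugars and starts the lectin pathway. It had 261, 209 and 233 CPM at ZT2 and 178, 154 and 161 CPM at ZT14 in THRBWT, and 235, 200 and 192 CPM and 180, 149 and 141 CPM in THRBKO. The swing was 1.37-fold and 1.33-fold, with peaks at ZT2.15 and ZT3.27 (edgeR adjusted p = 0.00224 and 0.00567). F5 peaked later, at ZT11.2 and ZT11.3, with swings of 1.33-fold and 1.25-fold (edgeR adjusted p = 0.0104 and 0.0219). In THRBWT the call of F5 was lost in edgeR without the mice of letter c (adjusted p = 0.0731) and with sampling time as a factor (0.103). In THRBKO it was lost without letter b (0.136) or c (0.212) and with time as a factor (0.137), and that of Mbl1 without letter b (0.0681) and with time as a factor (0.0506), again in edgeR.

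Called in THRBWT alone by edgeR were Kng2, a kininogen gene (peak ZT9.29, adjusted p = 0.00531 in THRBWT and 0.0519 in THRBKO), and F13b (peak ZT8.96, adjusted p = 0.0188 and 0.0579). Called in THRBKO alone were Plg (plasminogen), Serpind1 (heparin cofactor II), Proc (protein C), Mbl2 and C2. Their edgeR adjusted p in THRBKO were 0.00226, 0.00388, 0.0454, 0.0373 and 0.0357, and in THRBWT 0.0621, 0.0910, 0.187, 0.334 and 0.0600. Each of these 7 calls was lost in edgeR without the mice of at least 1 letter. The edgeR adjusted p was then 0.132 for Kng2 (without c), 0.0558 and 0.210 for F13b (b and c), 0.0517 for Plg (a) and 0.0567 for Serpind1 (b). It was 0.105 and 0.280 for C2 (b and c), 0.223 and 0.500 for Mbl2 (a and c), and 0.160 to 0.203 for Proc (each letter). Without the pair of mice with low terminal genes the edgeR adjusted p in THRBKO was 0.0520 for C2 and 0.0891 for Proc. Some of the 7 genes were also called in the other genotype by an alternative run. DESeq2 called Plg and C2 in THRBWT (adjusted p = 0.0322 and 0.0435), and Kng2 and F13b in THRBKO (0.0249 and 0.0324). Without that pair of mice edgeR called Plg and Proc in THRBWT, and Kng2 and F13b in THRBKO. C2 was the gene of the list called with a peak in the dark phase, at ZT13.2 in THRBKO. In neither genotype were the remaining 25 genes called, among them the 6 terminal genes, C3, Cfb, both complement regulators, and F2, F7, F9, F10, Pros1 and Proz.

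A call in 1 genotype does not show that the rhythm differs, and the test of that difference called none of the 40 genes (edgeR and DESeq2), with 0 at an unadjusted p under 0.05 in either. For all genes edgeR called 0%, with 3.07% at an unadjusted p under 0.05. The lowest unadjusted p of the list was 0.0783, for Fgb. For the 8 genes called in both genotypes the fitted peak was later in THRBKO by 0.0797 to 1.21 h, with a median of 0.941 h, in 8 of 8, and the amplitude was higher in THRBKO in 6 of 8. The 95% interval of each of these differences included 0, for example -0.397 to 2.82 h for the peak of Fgb and -0.04 to 0.28 for the amplitude of Fga. Because these genes were measured in the same mice, 8 of 8 is not 8 independent observations. The paper reports a slight delay in THRBKO over all the genes that its own methods called rhythmic in both genotypes. The shift over all genes called here is not given, so a later peak is not shown to be particular to this list.

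**Figure D4:**
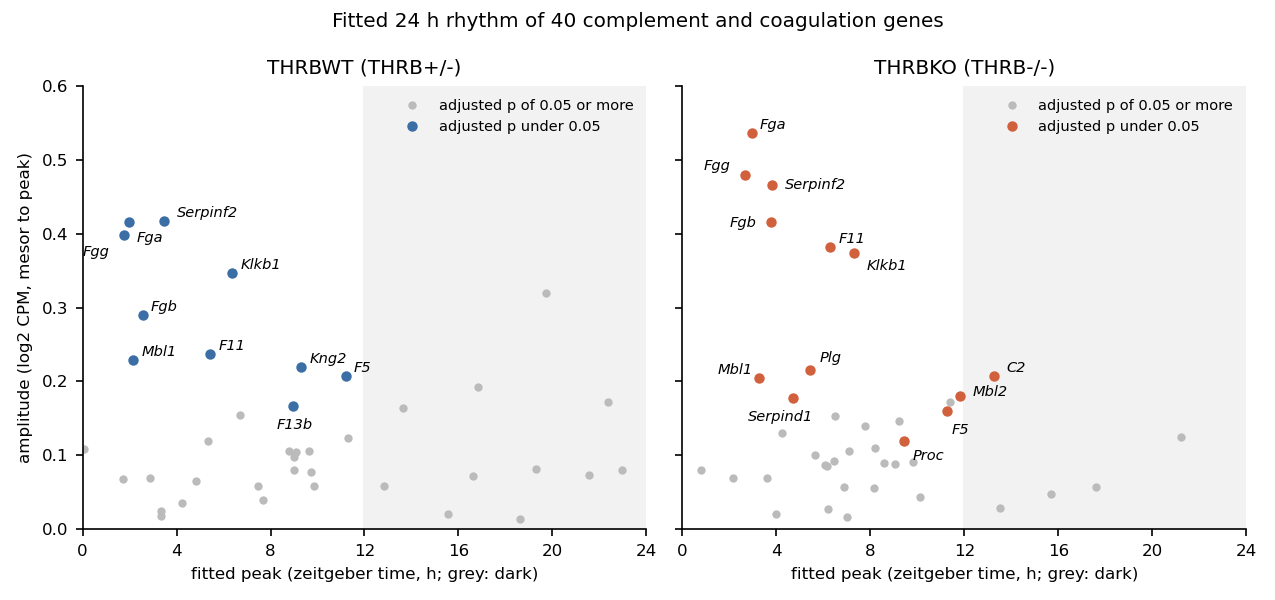
Fitted peak time against amplitude (log2 CPM) for the 40 genes in THRBWT (left) and THRBKO (right), with coloured, named points for an adjusted p under 0.05. The fibrinogen genes and Serpinf2 form the group of early peaks with high amplitude in both panels, and all called peaks in THRBWT fall in the light phase.

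Chains of one protein were compared within each library, where depth cancels. The log2 ratio of Fgg to Fga per kb was 0.04 ± 0.14 in THRBWT and 0.00071 ± 0.11 in THRBKO (SD, n = 18 each), while the level of Fga itself varied by an SD of 0.35 and 0.41 on the log2 scale. Fgb to Fga was -0.31 ± 0.13 and -0.33 ± 0.13, and over both genotypes it ran from a mean of -0.45 at ZT2 to -0.17 at ZT10. The SD of both ratios was below that of each of the 3 genes.

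Among the C8 genes, whose products form 1 complement component, C8b to C8a was -0.53 ± 0.14 and -0.52 ± 0.20, and C8g to C8a 0.25 ± 0.25 and 0.25 ± 0.28. C8g encodes a lipocalin, while C8a and C8b encode related pore proteins. C9 to C8a was -0.51 ± 0.28 and -0.56 ± 0.22. Kng2 to Kng1 was -2.86 ± 0.14 and -2.81 ± 0.10, so Kng2 stood at 0.137 and 0.143 of the Kng1 level per kb. Mbl2 exceeded Mbl1, with 1.48 ± 0.23 and 1.59 ± 0.31, and this ratio moved with time from a mean of 1.23 at ZT2 to 1.87 at ZT14. F13b to Fgb was -3.84 ± 0.29 and -3.73 ± 0.32, from -4.19 at ZT2 to -3.51 at ZT14. The differences between genotypes in these ratios were not tested. Each was smaller than the SD over mice, which describes single mice at all sampling times and not the error of a mean.

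Genes of the terminal pathway were among those that varied most between mice of the same group. The SD of log2 levels within groups was 0.53 for C6, 0.38 for C9, 0.35 for Cfb, 0.29 for C8b and 0.23 for Hc, the 5 highest of the list, against a median of 0.14 over the 40 genes and 0.15 over the 8438 genes at such levels. These SDs include the pair of mice that stood apart, and were not computed without them. In THRBWT C6 had 94.5 CPM in mouse b at ZT6, against 294 and 299 CPM in the other mice of its group, and the other 17 THRBWT mice lay between 229 and 408 CPM. In THRBKO it had 86.4 CPM in mouse b at ZT22, against 312 and 254 CPM in its group and 131 to 381 CPM in the other 17. Both mice were below all others of their genotype for C6.

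The same mice were low for other terminal genes. C9 had 177 CPM in the THRBWT mouse, with 291 to 536 CPM in the other 17, and 199 CPM in the THRBKO mouse, with 287 to 585 CPM in the other 17. C8b had 216 CPM against 337 to 473, and 227 CPM against 265 to 454. C8a and Hc were also lowest of their genotype in both mice, whereas C8g was lowest in the THRBKO mouse alone. Over the list, the THRBWT mouse was the lowest of its genotype for 16 of 40 genes and the THRBKO mouse for 11, and neither was the highest for any gene. No other mouse was lowest for more than 6.

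These mice were picked after their values were seen. Their summed acute phase level was 3182 CPM in the THRBWT mouse, the lowest of that genotype (3182 to 6192), and 3857 CPM in the THRBKO mouse (3567 to 6521 in that genotype), and their Saa1 level was 36.8 and 19.3 CPM. Some marker genes stood apart in them too. Serpina1c, a hepatocyte marker, and Alas2, a red cell marker, were lowest of their genotype in both mice, with 1130 and 1236 CPM for Serpina1c and 51.3 and 32.6 CPM for Alas2. Most markers of these lists were not, as 1 of 8 hepatocyte and 1 of 5 red cell markers were lowest in the THRBWT mouse. In the THRBKO mouse 2 of 8 and 2 of 5 were. The THRBKO mouse was the highest of its genotype for 5 of 6 sinusoidal endothelium markers, 4 of 8 Kupffer cell markers and 2 of 6 stellate cell markers. Its summed endothelium list was 165 CPM against 92.7 to 151 CPM in the other 17, its Kupffer list 402 CPM against 219 to 403 CPM, and its stellate list 452 CPM against 255 to 423 CPM. Its hepatocyte list was also the highest, with Alb at 75017 CPM, and its red cell list the lowest. The THRBWT mouse was the highest of its genotype for 0 genes of the endothelium, Kupffer and stellate lists. It was the highest for 2 of 5 cholangiocyte markers, and that list summed to 63.6 CPM against 34.2 to 63.5 CPM in the other 17. Its hepatocyte list (84720 CPM against 69798 to 95302) and red cell list (314 CPM against 219 to 983) lay within the range of the other 17. The part of these markers and of the acute phase genes in the low terminal genes was not tested. Without the pair, the log2 fold change of C6 was -0.32 (edgeR adjusted p = 0.201), the genotype calls in the list were again F11 and C2, and 12 genes were called rhythmic in THRBWT and 13 in THRBKO, of which 10 and 11 were among those called with all mice. Without mouse a of THRBWT at ZT2 the calls for genotype were again F11 and C2, with 10 rhythmic genes in THRBWT.

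**Figure D5:**
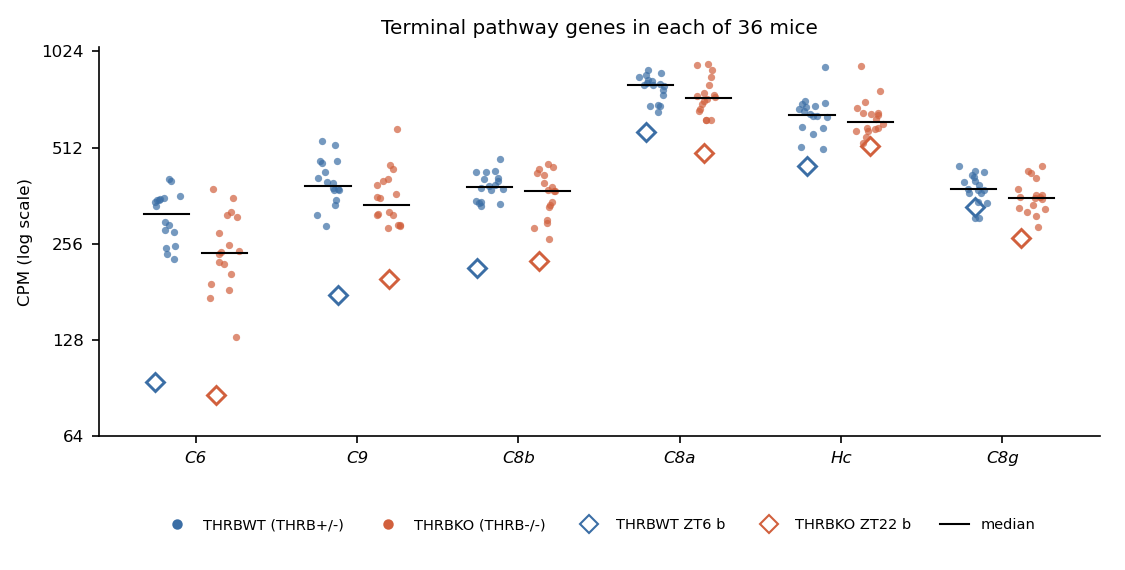
CPM on a log scale of the 6 terminal pathway genes in each of the 36 mice, by genotype, with medians as lines and mouse b of THRBWT at ZT6 and mouse b of THRBKO at ZT22 as open diamonds. The diamonds are the lowest points of their genotype for C6, C9, C8b, C8a and Hc.

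Genes of the same pathways that are not in the list are given by their counts. Of 24 further complement genes, 16 further coagulation genes, 5 genes of vitamin K recycling and of export from the endoplasmic reticulum, and 14 transcription factors and signalling genes known to act on hepatocyte secreted proteins, edgeR called 0 for genotype, with 2, 3, 0 and 0 at an unadjusted p under 0.05. DESeq2 called 1, Cr1l, a membrane regulator of complement, at 36.9 ± 3.18 CPM in THRBWT and 40.3 ± 3.10 CPM in THRBKO (SD, n = 18 each), and edgeR gave it an adjusted p of 0.0772.

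For rhythm, 4 of the 5 vitamin K and export genes were called in both genotypes, against 21.5% of all genes tested. Mcfd2 and Lman1, which encode the receptor that carries factors V and VIII out of the endoplasmic reticulum, peaked in the dark phase, Mcfd2 at ZT19.8 in THRBWT and ZT19.7 in THRBKO, and Lman1 at ZT14.8 and ZT15.8. Ggcx, the carboxylase of the vitamin K dependent factors, peaked at ZT20.6 and ZT21.9. Of the 14 regulators 9 were called in both genotypes, against the same 21.5%. Dbp, a PAR-domain factor driven by the clock, had the largest swing of the regulators in each genotype, with peaks at ZT9.92 and ZT10.4. By the mean amplitude of both genotypes Tef (ZT11.3 and ZT11.9) and Nfil3 (ZT21.7 and ZT21.8) came next, while in THRBWT alone Onecut1 had a larger amplitude than Nfil3 (1.01 against 0.88).

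Among the further complement genes, C4a, the close copy of C4b, had the largest amplitude (1.28 in THRBWT, edgeR adjusted p = 0.00575, and 0.67 in THRBKO, adjusted p = 0.193). C4a stood at 6.05 CPM in the THRBWT mouse and 21.2 CPM in the THRBKO mouse with low terminal genes. Of the 9 marker lists for hepatocytes, other liver and blood cells and the acute phase, with 53 genes tested, edgeR and DESeq2 called 0 genes for genotype, with 5 in edgeR and 7 in DESeq2 at an unadjusted p under 0.05. The median log2 fold change was -0.36 in the red cell list and -0.19 in the cholangiocyte list, and the part of these cells in any result was not tested. The summed Kupffer cell list ran from 205 to 617 CPM in THRBWT and from 219 to 403 CPM in THRBKO, the red cell list from 219 to 983 CPM and from 145 to 646 CPM, and the acute phase list from 3182 to 6192 CPM and from 3567 to 6521 CPM.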

How the data were processed

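Livers of 18 THRBWT and 18 THRBKO mice, 3 per genotype and sampling time, were sequenced as poly-A selected, non-directional paired-end libraries, 1 per mouse. The authors aligned reads with HISAT2 to GRCm38/mm10 and counted them per gene with featureCounts, and the deposited values are these counts, not normalized. Tool versions, annotation release and the treatment of multi-mapping or shared reads are not given in the sources used here. Groups were taken from the sample labels.

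Genes with fewer than 100 counts over the 36 libraries were left out. Counts were scaled with TMM and fitted with glmQLFit and glmQLFTest in edgeR 4.0.16 (R 4.3.3, limma 3.58.1), with sampling time as a factor for genotype, 5 interaction terms, a contrast per time, and cosine and sine terms of 24 h for rhythm. P-values were two-sided and adjusted by Benjamini-Hochberg over the 17994 genes, with 0.05 as the threshold. Amplitudes and peaks came from least squares on log2 CPM with a prior count of 2, with delta-method SE and 95% intervals and no test. DESeq2 1.42.0 was an alternative. The fits were tested on simulated data. Alternatives were other size factors, other filters, robust estimation, pooled times, time as a factor for rhythm, a replicate block, and leaving out each letter. For rhythm the 24 h curve was also fitted to log2 CPM with limma. The block was the sampling time with the letter, or the letter alone for rhythm within a genotype. Leaving out the pair of mice with low C6 and the mouse with high Saa1 were added after the data were seen.

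Genes of the list were described with their values where they passed an adjusted p of 0.05 in a genotype or rhythm difference test, where their unadjusted genotype p was under 0.05, or where they were among the 8 of largest mean amplitude called rhythmic in both genotypes, and genes outside it where they passed for genotype or were among the 3 of their list with the largest amplitude. Cr1l, Onecut1, Alb, Saa1, Serpina1c, Alas2 and Thrb were named outside this rule. The members and lists were chosen with earlier results of these data known. The labels give each mouse a number, often close to that of the mouse with the same letter in the other genotype. They do not say how the mice are related. The p-values weigh an effect against the spread between these mice, with no pairing by letter in the main fit.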

Additional observations from a re-analysis of the deposited data

How the results depend on the processing

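No result changed direction under any alternative run. The 2 genotype calls (F11 and C2) came to 0 with sampling times pooled, and to between 0 and 1 with 1 letter left out (C2 without a, F11 without b, neither without c). They were called again under the other size factors, filters, robust estimation and DESeq2. Rhythmic genes of the list numbered 10 in THRBWT and 13 in THRBKO. They came to 6 and 8 with sampling time as a factor, to between 6 and 10 and between 8 and 11 with 1 letter left out, and to 12 and 17 in DESeq2. The limma fit to log2 CPM called 9 and 14. The interaction, the tests at single times and the rhythm difference gave 0 in every alternative run. The median amplitude of the list, 0.103 over both genotypes, ran from 0.113 to 0.144 with 1 letter left out.

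Over all genes the genotype test called 171. This came to 65 with times pooled, 40 without letter a, 81 without b and 68 without c, and 315 in DESeq2 (306 in its likelihood ratio test). Rhythm calls over all genes, 5936 in THRBWT and 5201 in THRBKO, fell to between 3109 and 4005 and between 2343 and 3192 with 1 letter left out. The cause of these shifts was not tested, though fewer mice enter each such fit.

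The labels give each mouse a letter and a number but do not say what either marks, so pairs were not established. The numbers of same-letter mice of the 2 genotypes differed by 10 or less in 15 of 18 pairs and by up to 621 in the others. These mice had correlations of their deviations from -0.04 to 0.23 over 18 pairs, over 0.1 in 9 of 18. Among the 3 THRBKO mice of a sampling time, the same letter gave the highest correlation in 15 of 18. The main fit does not take such a pairing into account. With a replicate block on the letter, 3 genes of the list were called for genotype, adding F13b (log2 fold change 0.13, edgeR adjusted p = 0.0198), 387 over all genes, 12 and 13 for rhythm, and 0 for the interaction, single times and rhythm difference.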
